A study of Drosophila melanogaster with 2 samples.

Results

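The genes described here encode 10 Drosophila melanogaster proteins that mark chromatin boundaries and promoters: Chro, Cp190, mod(mdg4), CTCF, BEAF-32, su(Hw), pita, Trl, Dref and M1BP. They are 10 of 13945 protein-coding genes. They were chosen by name with their NC2alpha peaks in view, that is, by the signal and position of the peaks at their transcription start sites (TSSs) and inside them, so those values are given as a description and no test is made on them. All 10 symbols matched a protein-coding gene of the Ensembl annotation.

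The single group was embryos of 0 to 24 hours, both sexes pooled, used whole, from a stable transgenic line (NC2alpha-GFP) in which GFP is joined to the C terminus of NC2alpha. The labels name the antibody both as anti-GFP and by its target, NC2α. Chromatin immunoprecipitation and sequencing (ChIP-seq) was done in 2 biological replicates, with no second genotype, stage or treatment. No source used here names the promoter that drives the fusion protein, and whole embryos mix all cell types, so a peak does not show in which cells or at which hour the protein was bound.

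NC2 is a dimer of histone-fold proteins that binds TATA-binding protein on DNA and was found as a repressor of transcription from TATA promoters. Insulator proteins bind DNA at domain borders and near promoters, either directly through zinc fingers or through partners with BTB or chromo domains that bridge them. In the fly many of their sites lie at promoters of housekeeping genes, where factors for the DNA replication-related element (DRE) and for motif 1 also bind, and many of these genes are transcribed in opposite directions from one interval.

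The authors' optimal list, the peaks that passed their reproducibility filter, held 2174 peaks on Release 6 of the genome (dm6), and these were the 2174 strongest of 30000 pooled peaks. Each replicate also had a list of 30000. Signal is the authors' value per peak against a control. It has a scale not given in the sources used here. Peaks were ordered by it within a list, and between the replicates it is given side by side and as a ratio read only against the median ratio of all optimal peaks. It ran from 82.0 to 1230.2 in the optimal list, with a median of 118.0. A peak was placed at a gene when its summit lay within 500 bp of any annotated TSS of that gene, and inside a gene when the summit lay between its ends. Distances are negative upstream of a TSS and positive downstream.

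An optimal peak lay at a TSS of 8 of the 10 genes. The exceptions were su(Hw) and M1BP. Over all protein-coding genes the share was 10.5%. Counting summits inside the gene as well left 8 genes, against 13.5% of coding genes. In the unfiltered pooled list a TSS of 9 of the 10 had a peak, all but su(Hw), against 51.3% of coding genes. Among the 2174 strongest peaks of each replicate, replicate 1 had a peak at 9 of the 10 (10.2% of coding genes) and replicate 2 at 8 (10.7%). These peaks chose the genes, so nothing is read from the distance to those shares. The 8 genes with an optimal peak had a median signal of 134 at their strongest TSS peak, and the 1460 coding genes with an optimal peak had a median of 123. Of the 8, 4 lay above that median (Chro, Dref, Trl and Cp190) and 4 below it (BEAF-32, CTCF, pita and mod(mdg4)).

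**Figure D1:**
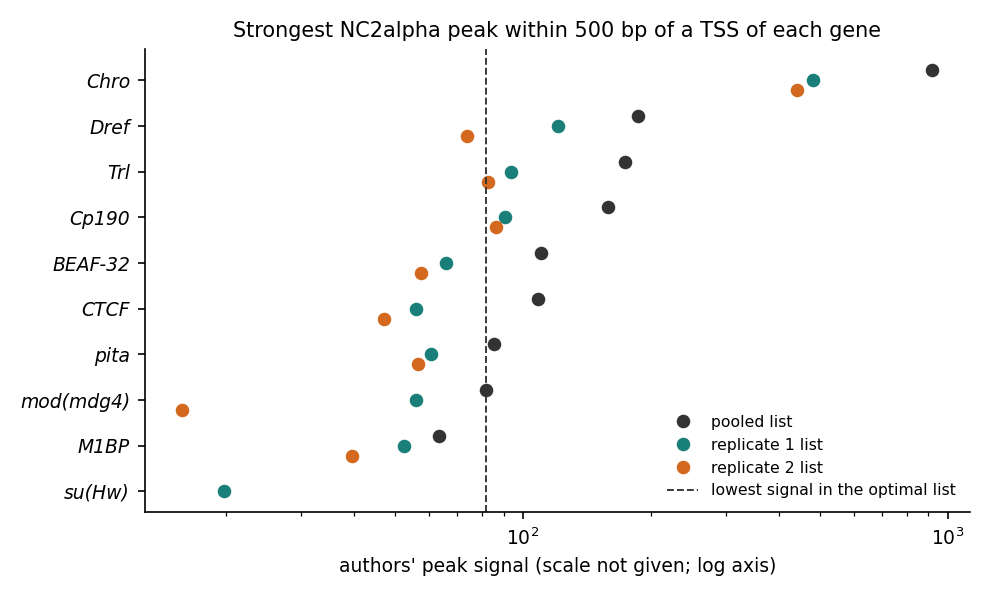
The authors' signal of the strongest peak within 500 bp of a TSS (log axis) is plotted for each gene in the pooled and replicate lists, with the lowest optimal signal as a dashed line. Chro stands apart at 919 in the pooled list, 7 further genes lie between 82.0 and 186, M1BP falls short of the line at 63.3, and su(Hw) has a point in replicate 1 alone.

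Among the proteins that bridge insulators without a long DNA motif of their own, Chro had the strongest peak of the 10 genes. Chro (Chromator, also called Chriz; FBgn0044324, chr3L:22873702-22878984, minus strand) is a chromodomain protein of interbands and domain borders. Its signal was 481 in replicate 1 and 441 in replicate 2, ranks 8 and 5 of those lists. The pooled peak (chr3L:22878737-22879088) had a signal of 919 and ranked 5 of 2174. The summits of the pooled list and of both replicates lay 71 to 88 bp downstream of the TSS of transcript RE, in the 5′ UTR of Chro. RE is 1 of 5 transcripts, and the pooled summit lay at -128 bp from the TSS that 3 others (RB, RC and RD) share. The same peak was -193 bp from the TSS of Ssl1, a subunit of the transcription factor TFIIH, on the other strand. The weaker of its pooled peaks at a TSS, 280 bp downstream of the TSS of transcript RA, had a signal of 43.2.

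The interval between the Chro and Ssl1 start sites is shown because the strongest peak of the set overlies it, together with the 25 bases around the summit. Here and below, sequences are the plus strand of the RefSeq Release 6 genome (dm6), and capitals mark matches on either strand to the motifs named further down. The interval (chr3L:22878985-22879088) ends in GTATATTT, a promoter element called Ohler 6. That match lies more than 150 bp from the summit, outside the window of the motif search further down. The summit bases (chr3L:22878882-22878906) hold CGATA, the short motif that BEAF-32 binds.
Chro-Ssl1: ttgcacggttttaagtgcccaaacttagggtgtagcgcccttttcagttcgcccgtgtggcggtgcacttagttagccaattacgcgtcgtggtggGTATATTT
Chro summit: tattgcctgtCGATAgctttaaact

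Cp190 (FBgn0000283, chr3R:15270432-15275241, minus strand) is a BTB and zinc-finger protein that joins several insulator proteins. Its peak had a signal of 90.7 in replicate 1 and 86.3 in replicate 2, and the pooled peak (chr3R:15275242-15275645) had 158 and ranked 605. The pooled summit lay -203 bp from the Cp190 TSS and -78 bp from that of CG4338, in the interval between them. The replicates placed their strongest summits apart, at -213 bp in replicate 1 and -67 bp in replicate 2, and replicate 2 held a second, weaker peak of 35.9 at -278 bp. The interval itself (chr3R:15275242-15275521) is shown for its base composition, with a single CGATA. G and C made up 28.9% of it.
Cp190-CG4338: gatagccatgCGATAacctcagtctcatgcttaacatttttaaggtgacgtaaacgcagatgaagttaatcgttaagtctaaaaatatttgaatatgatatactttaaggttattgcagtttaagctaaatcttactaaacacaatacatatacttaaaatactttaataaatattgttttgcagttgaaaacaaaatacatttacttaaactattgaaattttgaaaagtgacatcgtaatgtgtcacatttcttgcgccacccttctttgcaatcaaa

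The gene mod(mdg4) (FBgn0002781, chr3R:21350846-21377401, minus strand) encodes a family of BTB proteins that share their first exons and differ in their last ones. Many of those last exons are joined by trans-splicing, from precursor transcripts that are annotated as separate pre-mod(mdg4) genes. All 22 of its transcripts start at a single TSS. At that TSS the signal was 56.1 in replicate 1 and 15.8 in replicate 2, ranks 1739 and 16796 of the 2 lists. The pooled peak (chr3R:21377186-21377589) had 82.0 and ranked 2171, near the end of the optimal list. Its q value, as the authors give it on a −log10 scale, was 2.68. Its summit lay 13 bp inside the 5′ UTR. The peak was thus among the 2174 strongest of replicate 1 and not of replicate 2.

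A stronger peak lay inside mod(mdg4), 11895 bp downstream of that TSS in an intron (chr3R:21365304-21365707). It had a signal of 102 in replicate 1 and 120.1 in replicate 2, and 227 in the pooled list, rank 259. The replicate 2 summit was the pooled one, at 11895 bp, and that of replicate 1 was at 11915 bp. This summit was at TSSs of 10 of the 23 annotated pre-mod(mdg4) genes. For the plus-strand genes AD, AE, U, V, W, X and Y, which share a TSS, it lay at -103 bp, and for the minus-strand genes E, AB and C at -18 bp (E) and -216 bp (AB and C). The strongest peak of the locus lay at start sites of precursor genes and not at the shared start of mod(mdg4). The interval between these opposed start sites (chr3R:21365489-21365608) held none of the motifs searched. The 150 bases before the mod(mdg4) TSS (chr3R:21377402-21377551) are shown beside it because they hold TATCGATA, the DRE, which itself contains CGATA on both strands. Of the 3 CGATA matches there, 1 lies outside the DRE, where it overlaps a TATAAA match.
pre-mod(mdg4)-E to pre-mod(mdg4)-V: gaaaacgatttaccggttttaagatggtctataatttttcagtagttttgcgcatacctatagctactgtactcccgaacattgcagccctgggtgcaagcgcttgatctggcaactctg
mod(mdg4) upstream: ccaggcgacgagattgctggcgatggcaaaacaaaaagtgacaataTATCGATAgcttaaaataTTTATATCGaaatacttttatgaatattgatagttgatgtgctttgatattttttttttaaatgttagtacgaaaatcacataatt

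**Figure D2:**
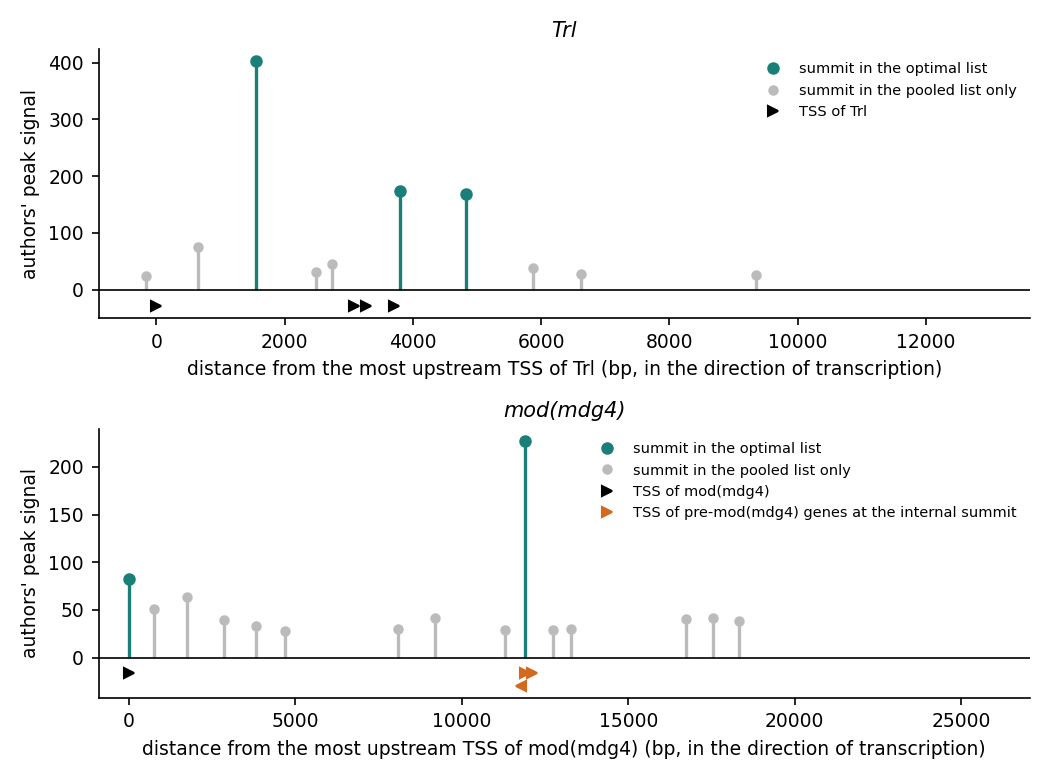
The pooled peaks of Trl (top) and mod(mdg4) (bottom) are plotted by distance in bp from the most upstream TSS of each gene, along the direction of transcription, with the authors' signal as height and annotated TSSs as arrows beneath. The tallest peak of each gene lies inside it, at 402 for Trl and 227 for mod(mdg4), and the mod(mdg4) peak stands over the start sites of pre-mod(mdg4) genes (orange).

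Of the zinc-finger and BED-finger proteins that bind insulator DNA directly, CTCF had a signal of 56.0 in replicate 1 and 47.1 in replicate 2. CTCF (FBgn0035769, chr3L:7353578-7356713, minus strand) is the fly counterpart of the vertebrate boundary protein. The pooled peak (chr3L:7356265-7356668) had 109 and ranked 1251. Its summit lay 246 bp downstream of the only annotated TSS, in an intron of CTCF and an exon of the antisense RNA asRNA:CR45822, whose own TSS was 466 bp away. A weaker pooled peak of 60.5 (rank 3877) lay 43 bp downstream of the TSS. Each replicate also listed a weaker peak near the TSS, of 27.6 at 43 bp in replicate 1 and 26.8 at -10 bp in replicate 2, so both replicates had the stronger summit downstream.

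BEAF-32 (FBgn0015602, chr2R:14770469-14772630, plus strand) is a BED-finger protein that binds clusters of CGATA. Its strongest peak had a signal of 65.7 in replicate 1 and 57.5 in replicate 2. The pooled peak (chr2R:14771054-14771457) had 110.0 and ranked 1227. The gene has 3 annotated TSSs, and this summit was at -45 bp from the last of them, that of transcript RB, in a 5′ UTR of BEAF-32. It was also 340 bp downstream of the middle TSS, that of transcript RC. From the RB start, the replicate summits were at -192 bp in replicate 1, which also listed a peak of 38.1 at 49 bp, and at -12 bp in replicate 2. The stronger replicate 1 summit thus lay between the RC and RB starts. The pooled summit was also 39 bp downstream of a TSS of the antisense RNA asRNA:CR42254. At the first TSS, that of transcript RA, a pooled peak of 65.1 (rank 3322) lay at -34 bp, with 23.9 in replicate 1 and 39.3 in replicate 2. That peak fell short of the optimal list, so the stronger peak of BEAF-32 was at its internal start sites, nearest to RB in the pooled list.

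The gene pita (FBgn0034878, chr2R:23548967-23554712, minus strand) encodes a zinc-finger insulator protein that recruits Cp190. It had an optimal peak at each of its TSSs, and both were low in the optimal list. In each replicate alone its strongest TSS peak ranked higher, at 1478 in replicate 1 (RB) and 943 in replicate 2 (RA). The peak at the TSS of transcript RB (chr2R:23550966-23551369; 85.6, rank 2016) had 60.7 in replicate 1 and 35.3 in replicate 2, and its summit lay 383 bp downstream of that TSS. The replicate 2 peak of 35.3 had its own summit 602 bp downstream of the RB start, outside the 500 bp limit. The replicate 2 peak nearest to the pooled summit lay 397 bp downstream of that start and was weaker, at 24.0 (rank 5353). The pooled summit was also -145 bp from the TSS of Dcp-1, an effector caspase that lies on the other strand within the pita gene. The peak at the TSS of transcript RA (chr2R:23554456-23554859; 84.6, rank 2051) had 31.9 in replicate 1 and 56.5 in replicate 2, 54 bp downstream of that TSS. Replicate 1 was the higher at the RB start and replicate 2 at the RA start, so the replicates ordered the pair of start sites in opposite ways.

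The su(Hw) gene (FBgn0003567, chr3R:14304455-14308589, minus strand) encodes the zinc-finger protein that binds the gypsy insulator, and it was the only gene of the 10 with no pooled peak at its TSS. Replicate 1 listed a peak of 19.8 at 328 bp downstream (rank 17168), and replicate 2 listed none within 500 bp. A pooled peak of 58.8 (rank 4114) lay 615 bp downstream of the TSS in an intron, with 31.0 in replicate 1 and 27.2 in replicate 2. The TSS of Polr2I, a subunit of RNA polymerase II, lies 500 bp away on the other strand.

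Trl, Dref and M1BP encode proteins that bind promoters through short motifs. Trl (FBgn0013263, chr3L:14747929-14761049, minus strand) encodes the GAGA factor, which binds GAGAG repeats and is known for keeping promoters accessible. Its strongest peak was not at a TSS. It had a signal of 191 in replicate 1 and 209 in replicate 2, and 402 in the pooled list (chr3L:14759367-14759681), rank 64. It lay in an intron of transcript RF, -1536 bp from the TSS that 7 of the 10 transcripts use. At that TSS itself only a pooled peak of 45.5 (rank 7281) was found, at -348 bp, with 28.7 in replicate 1 and no peak in replicate 2. The 201 bases around the intron summit (chr3L:14759398-14759598) are shown because this is the second strongest peak of the 10 genes, and they hold a single TATAAA.
Trl intron: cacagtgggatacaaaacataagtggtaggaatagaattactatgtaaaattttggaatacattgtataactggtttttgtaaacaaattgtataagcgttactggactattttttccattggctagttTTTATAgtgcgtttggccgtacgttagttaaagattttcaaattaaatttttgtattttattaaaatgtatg

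The optimal peak at a TSS of Trl (chr3L:14757041-14757444) had a signal of 93.9 in replicate 1 and 82.6 in replicate 2, and 174 in the pooled list, rank 495. Its summit was 93 bp downstream of the TSS of transcript RJ, in the 5′ UTR of Trl and of the overlapping gene CG42507. A further intron peak, 1122 bp downstream of that TSS, had 82.4 in replicate 1 and 80.3 in replicate 2, and 168 in the pooled list (rank 543). Trl was thus the only gene of the set with 3 optimal peaks. The bases before the RJ start (chr3L:14757337-14757411) are shown because they carry 8 overlapping matches to GAGAG, the motif of the GAGA factor itself, on the minus strand, the strand of Trl.
Trl-RJ upstream: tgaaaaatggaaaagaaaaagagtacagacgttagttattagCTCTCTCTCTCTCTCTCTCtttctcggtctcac

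Dref (FBgn0015664, chr2L:9964147-9967229, minus strand) encodes the factor that binds the DRE of genes for growth and DNA replication. Its peak had a signal of 121 in replicate 1 and 74.0 in replicate 2, and the pooled peak (chr2L:9967087-9967490) had 186 and ranked 418. The pooled summit lay in the interval between Dref and RpL13, which encodes a protein of the large ribosomal subunit, at -60 bp from the TSS of Dref and -24 bp from that of RpL13. The replicate 2 summit was at -59 bp and that of replicate 1 at -108 bp, in the 5′ UTR of RpL13. The interval is the shortest of the set (chr2L:9967230-9967312), and it holds CGATA within a sequence that lacks the full DRE.
Dref-RpL13: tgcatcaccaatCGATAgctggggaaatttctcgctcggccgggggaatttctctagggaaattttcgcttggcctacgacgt

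M1BP (FBgn0037621, chr3R:8729790-8731698, minus strand) encodes the zinc-finger protein that binds motif 1, a core promoter element of housekeeping genes. It had no optimal peak, although each replicate alone placed it among its 2174 strongest peaks. Replicate 1 had a peak of 52.4 (rank 1988) at -102 bp from the TSS, and replicate 2 had one of 39.6 (rank 1761) at -286 bp. Replicate 1 listed a second, weaker peak of 24.0 at -311 bp. The pooled list divided the interval between M1BP and CG8202 into 2 overlapping peaks, of 63.3 (rank 3523) at -147 bp and 55.4 (rank 4684) at -356 bp. The first had a −log10 q of 1.84, against at least 2.66 in every optimal peak. The 300 bases before the CG8202 start (chr3R:8731791-8732090) are shown because the strongest summits of the replicates are apart in them. They hold 7 matches to TATAAA on both strands, and G and C made up 24.7% of them.
M1BP-CG8202: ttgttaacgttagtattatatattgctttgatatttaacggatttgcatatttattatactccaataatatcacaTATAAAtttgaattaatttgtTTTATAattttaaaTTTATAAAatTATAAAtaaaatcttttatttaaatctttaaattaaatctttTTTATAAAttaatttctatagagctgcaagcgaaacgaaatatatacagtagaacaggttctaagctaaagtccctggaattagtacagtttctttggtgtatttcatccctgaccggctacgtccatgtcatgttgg

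**Figure D3:**
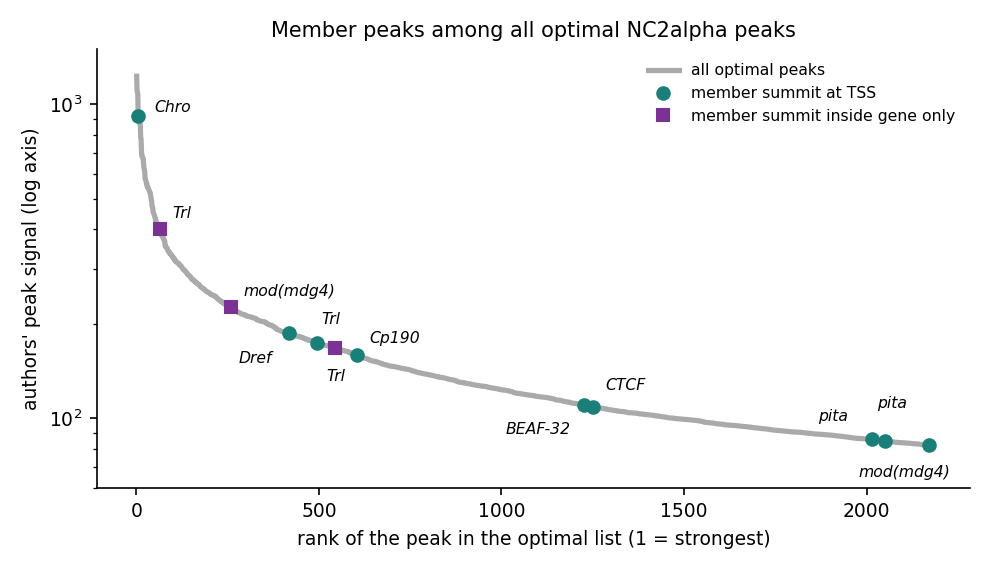
The authors' signal (log axis) is plotted against rank for all 2174 optimal peaks (grey), with the 9 summits of the 10 genes at TSSs (circles) and the 3 inside genes only (squares). Chro lies at rank 5 and the Trl intron peak at rank 64, while the pita peaks and the mod(mdg4) TSS peak lie at ranks 2016, 2051 and 2171, at the weak end.

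In order of signal, the 12 optimal summits were those of Chro, the Trl intron, the mod(mdg4) intron, Dref, the Trl TSS, the second Trl intron, Cp190, BEAF-32, CTCF, the pita RB and RA starts and the mod(mdg4) TSS. The stronger Trl intron peak came directly after Chro in both replicates. Dref came next in replicate 1. In replicate 2 it came after the mod(mdg4) intron, Cp190 (86.3, or 35.9 with the nearest summit) and the other Trl peaks. The order in the middle of the list is thus not fixed by these 2 replicates. In the pooled list the 10 genes held 18 summits at TSSs and 30 inside genes only, of which 14 lay in mod(mdg4), the longest of them at 26556 bp. The −log10 q was at its maximum of 3.59 for 9 of the 12 optimal summits and below it for both pita peaks (2.91 each) and the mod(mdg4) TSS (2.68).

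Close to the limits of the rule, the summits farthest from a TSS that still counted were those of pita (383 bp) and of M1BP (-356 bp). The nearest that did not count were a Trl peak at -594 bp (30.7) and the su(Hw) intron peak at 615 bp (58.8). The weakest optimal peaks of the set were at the mod(mdg4) TSS and the RA start of pita, and the strongest pooled peaks outside the optimal list were a Trl intron peak (74.9, rank 2555) and the RA start of BEAF-32 (65.1). The highest pooled signal outside the optimal list was 81.9, so the mod(mdg4) TSS peak was inside it by a small margin.

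The replicates differed in scale over the whole optimal list. Replicate 1 was 1.31 times replicate 2 at the median over 2158 optimal peaks listed by both, and 12.0% of peaks were over 2-fold apart once that factor was removed. At Cp190, Chro, Trl (TSS), BEAF-32 and CTCF the ratio of replicate 1 to replicate 2 was between 1.05 and 1.19, and at Dref it was 1.63. These values take the strongest replicate peak that overlaps the optimal one. Taking the replicate peak with the nearest summit instead, within 200 bp, the ratio was 2.53 at Cp190 and 0.663 at BEAF-32, so the narrow range does not hold for those genes. With the strongest overlapping peak, the 3 summits inside genes only had ratios of 0.853 to 1.03. These were below the median of 1.31, as were the ratios of 1.05 to 1.19 at TSSs and that of the pita RA start. The ratio at the mod(mdg4) TSS was 3.56, and 3.20% of optimal peaks had one at least as high. At the pita starts it was 1.72 (RB, or 2.53 with the nearest summit) and 0.565 (RA), and 1.44% of optimal peaks had a ratio as low as the second. With 2 replicates no spread can be put on a single ratio.

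Promoters of some of the 10 genes face another coding promoter. A protein-coding TSS on the other strand lay within 500 bp of a TSS of 6 of the 10 genes (60%), against 27.8% of all coding genes. The start sites were 84 bp apart for Dref and RpL13, 105 bp for Chro and Ssl1, 281 bp for Cp190 and CG4338, 393 bp for M1BP and CG8202 and 500 bp for su(Hw) and Polr2I. Those of pita and Dcp-1 cross, with the plus-strand site at -238 bp from the minus-strand one. At 4 of the 6 an optimal peak was shared with the partner, and peak lists do not show which of the 2 promoters it belongs to. By the nearest TSS alone, the Dref peak went to RpL13, the Cp190 peak to CG4338 and the pita RB peak to Dcp-1. The Chro peak went to Chro. Outside these pairs, the BEAF-32 peak went to the antisense RNA asRNA:CR42254, at 39 bp from its TSS and -45 bp from that of BEAF-32. Over the genome 388 of the 1192 optimal peaks at TSSs (32.6%) were at 2 or more coding genes. An optimal peak lay at 20.2% of the 3878 coding genes with such a partner and at 6.73% of the other 10067. Among the 1460 coding genes with an optimal peak at a TSS, 782 had such a partner. Of the 8 genes of the set with such a peak, 4 did. The 10 genes were chosen on their peaks, so nothing is read from the 60% beside the 27.8%.

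**Figure D4:**
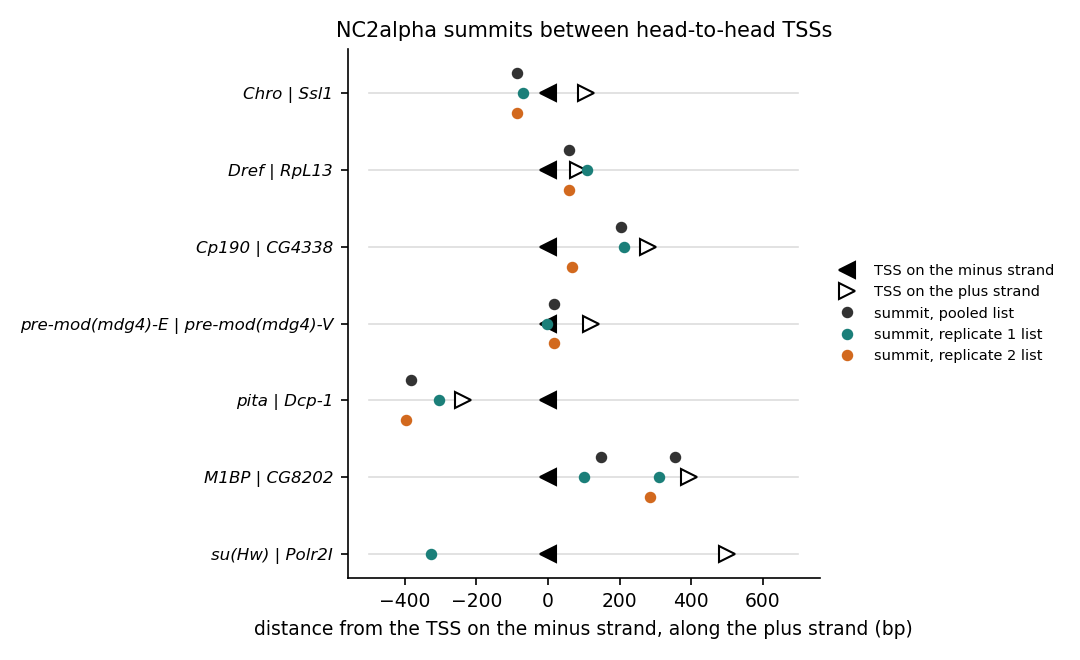
Summits of the strongest peak within the plotted range in the pooled list (black), replicate 1 (green) and replicate 2 (orange) are plotted by distance in bp from the minus-strand TSS (filled arrow) toward the plus-strand TSS (open arrow), with the strongest 2 per list for M1BP. The pita peak of 35.3 in replicate 2 and the pooled su(Hw) peak of 58.8 lie outside that range. The Chro summits lie inside Chro transcript RE, those of Dref and Cp190 lie in or near the interval between the start sites, and the replicate summits of Cp190 and M1BP are apart.

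Short motifs were searched on both strands within 150 bp on each side of the 12 optimal summits, of all 2174 optimal summits and of 13691 coding promoters. CGATA (BEAF-32) was found at 7 of the 12 summits (58.3%), against 38.4% of optimal peaks and 47.7% of promoters. Those 7 were Chro, CTCF, BEAF-32, the mod(mdg4) TSS, both pita starts and Dref, and at Chro the match began 4 bases before the summit. TATCGATA (the DRE, which contains CGATA on both strands) was found at 2 (16.7%), the mod(mdg4) TSS and the pita RA start, against 4.51% of optimal peaks and 8.39% of promoters. GAGAG (GAGA factor) was found at 2, the Trl TSS and Dref, against 41.4% of optimal peaks and 31.3% of promoters.

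TATAAA, the box bound by TATA-binding protein, was found at 5 of the 12 (41.7%), against 38.1% of optimal peaks and 39.7% of promoters. CATCNCTA (Ohler 7) was found at 1, the pita RA start (5.11% of optimal peaks, 6.05% of promoters), and GTATATTT or GTATTTTT (Ohler 6) at 1, BEAF-32 (10.3% and 10.8%). GGTCACAC (the core of motif 1) and CAGCTG (an E-box) were at none of the 12, against 3.59% and 15.3% of optimal peaks and 7.39% and 18% of promoters. With 12 summits each count moves a share by 8.33 percentage points, and a match is no measure of binding.

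Among the motifs searched were those bound by the products of BEAF-32, Trl, Dref and M1BP, and no motif of CTCF, su(Hw) or pita was searched. The BEAF-32 window and 1 of the 3 Trl windows, that at the TSS, held the motif of their own product. Both matches were lost with 75 bp on each side. The window at the stronger Trl intron peak held no GAGAG. The Dref window held CGATA without the full DRE, and the window at the stronger M1BP peak held no match to motif 1. The windows also differed in base composition. G and C made up 39.2% at the median of all optimal summits (quartiles 35.5% and 43.2%), 49.5% at CTCF, 45.2% at the Trl TSS and 43.5% at Chro. They made up 30.6% at BEAF-32, and 3.50% of optimal peaks were as low. They made up 29.2% at Cp190 (1.52% of optimal peaks as low) and 22.6% at the stronger pooled M1BP peak (0.0460% as low).

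The pathway was widened with 42 other genes for architecture proteins, of which 40 symbols matched the annotation, and Mzfp1 and SA were not used here. An optimal peak lay at a TSS of 9 of the 40 (22.5%), against 8 of the 10 genes above and 10.5% of coding genes, and any pooled peak at 28 (70%), against 51.3% of coding genes. The median signal of the 9 was 95.7. The lists were written with results of these data known, so the counts are a description.

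Among 14 other DNA-binding proteins, 2 had an optimal peak (14.3%). Pipsqueak (psq), which binds GAGA repeats, had 61.9 in replicate 1 and 42.0 in replicate 2, and 112 in the pooled list. The zinc-finger gene row had 23.9 in replicate 1 and 60.8 in replicate 2, and 87.9 in the pooled list. For 6 of the 14 (Ibf1, Ibf2, Elba1, Elba2, Elba3 and insv) no pooled peak was listed at a TSS.

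Among 14 cofactors, 4 had an optimal peak (28.6%). Nup98-96, which encodes 2 nuclear pore proteins, had 98.3 in replicate 1 and 100.8 in replicate 2, and 195 in the pooled list. The gene pzg, whose product works with Dref, had 61.8 in replicate 1 and 68.4 in replicate 2, and 133 in the pooled list. The bromodomain gene fs(1)h (95.7 in the pooled list, 37.0 and 40.0 in replicates 1 and 2) and l(3)mbt (85.8 in the pooled list, 41.4 and 49.3 in replicates 1 and 2) were weaker. Each of the 4 peaks was also at a TSS of another gene, mbc for Nup98-96, CG12974 for pzg, mys for fs(1)h and CG5934 for l(3)mbt. E(bx), a subunit of the remodeller NURF, had a pooled peak of 77.3 (rank 2412), short of the optimal list.

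Of 12 cohesin and condensin genes, 3 had an optimal peak (25%) and 11 a pooled peak (91.7%), all but SMC3. The cohesin regulator pds5 had 131 in replicate 1 and 114 in replicate 2, and 244 in the pooled list (rank 216), the highest of the 40 and above every TSS peak of the 10 genes but that of Chro. The condensin genes SMC2 (89.1 in the pooled list, 44.3 and 45.0 in replicates 1 and 2) and Cap-H2 (85.9 in the pooled list, 29.5 and 53.8 in replicates 1 and 2) were near the end of the list. These 3 peaks were shared with Mppe, Ercc1 and MED7, in the order pds5, SMC2 and Cap-H2.

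**Figure D5:**
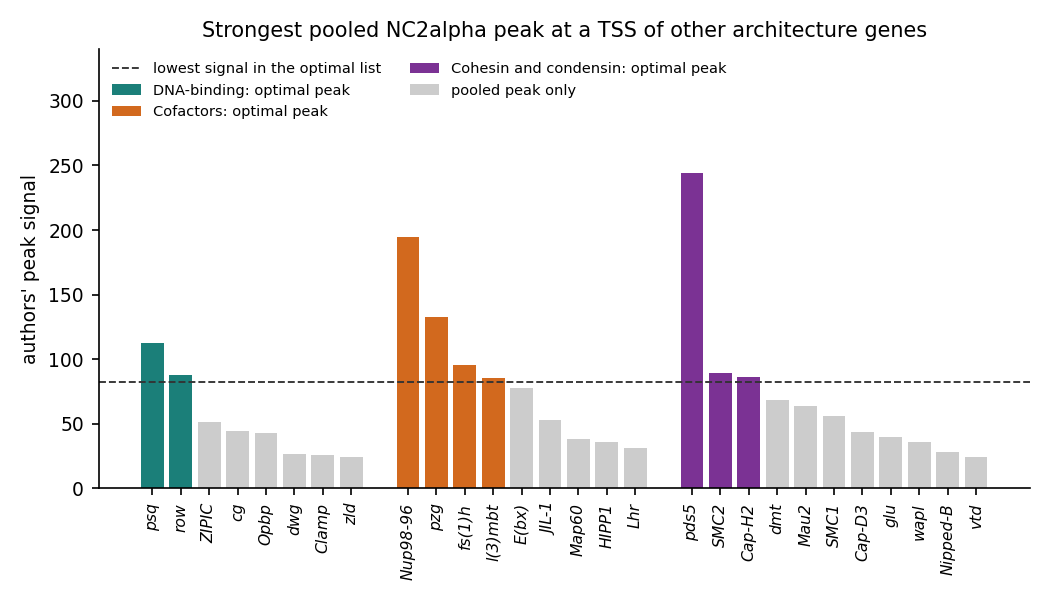
Bars give the authors' signal of the strongest pooled peak at a TSS of the 28 other architecture genes that had one, coloured by list where the peak is optimal and grey where it is in the pooled list only, with the lowest optimal signal as a dashed line. pds5 (244) and Nup98-96 (195) are the tallest, and 5 of the 9 optimal bars lie at 95.7 or less, close to the line.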

How the data were processed

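ChIP-seq for eGFP-tagged NC2alpha was made from 2 embryo samples labelled as separate biological replicates. Peak lists on dm6 were used as deposited by the authors: an optimal list that passed an irreproducible discovery rate filter, a pooled list and 1 list per replicate. The signal and the −log10 q value of each peak are the authors', and the summit offset (other) deposited by the authors placed each summit. The deposited notes name a control alignment. Aligner, peak caller and the filter's cut-off: not given in the sources used here. Lists on dm3 were not used. Sequencing depth is unknown, so no interval is given, and list lengths do not measure it.

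Peaks were ranked by signal, since 89.5% of optimal peaks share the maximum −log10 q. Genes came from Ensembl 115 and sequence from the RefSeq Release 6 genome. Each summit was assigned to every gene with a TSS within 500 bp. A replicate value is that of the strongest replicate peak sharing at least 1 base. The assignment was checked on planted peaks. The lists of other architecture genes, the motifs and the members were chosen with earlier results of these data known. Named genes were the 10 genes, those sharing their promoter peaks, other architecture genes with an optimal peak and the peaks at the limits of the rule. E(bx) and genes without a peak were named after their values were seen. Computation used Python 3.11.15, numpy 2.4.6, pandas 2.3.3 and matplotlib 3.10.9. No statistical test was made, as there is 1 group and the members were chosen on these values. Alternatives were single replicates, shorter and longer lists, windows of 200 and 1000 bp, the nearest TSS alone, other matches between lists and a narrower motif window.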

Additional observations from a re-analysis of the deposited data

How the results depend on the processing

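The number of the 10 genes with a peak at a TSS was 8 to 9 when 1 replicate was left out, and 9 with summits inside genes counted; the coding share was 10.2% to 10.7%. Without replicate 1, M1BP took the place of mod(mdg4), and without replicate 2 it was added. For the other architecture genes the range was 5 to 9, with 5 without replicate 2. In the stronger 1087 optimal peaks 4 genes were left (Chro, Cp190, Trl and Dref), or 5 with summits inside genes, beside 5.72% of coding genes and 3 other architecture genes. In the strongest 4348 pooled peaks 18.8% of coding genes had one, and in all pooled peaks 51.3% of coding genes and 28 other genes did. When each summit went only to its nearest TSS, 5 of the 10 genes were left (Chro, CTCF, mod(mdg4), Trl and pita), with 7.71% of coding genes and 4 other genes. Windows of 200 bp gave 6 genes (7.58% of coding genes) and 1000 bp gave 8 (12.5%). In single replicates the best TSS rank moved by more than the SD of the replicate ranks for Chro (8 without replicate 2), Cp190 (381 without replicate 1), CTCF (1742 without replicate 2), BEAF-32 (908 without replicate 1) and pita (943 and 1478 without replicates 1 and 2). The mod(mdg4) TSS peak ranked 16796 in replicate 2, beyond the 2174 strongest, so its rank without replicate 1 was left out of this comparison. Matching by the nearest summit within 200 bp changed 3 of 18 replicate values at TSSs: Cp190 in replicate 2 to 35.9, BEAF-32 in replicate 1 to 38.1 and the pita RB start in replicate 2 to 24.0. The first 2 moved by more than the SD of the replicates. Here and for the ranks that SD rests on 2 values, so it is no measure of spread. An overlap of at least 50% changed that pita value alone. Halving the motif window to 75 bp on each side left CGATA at 4 summits, the DRE at 1 and TATAAA at 2, and GAGAG, Ohler 6 and Ohler 7 at none, so the BEAF-32 and Trl TSS windows lost their own motifs. The cause of these moves was not tested. No paired analysis was possible because the 2 samples form a single group. Depth is unknown and each list ends at a fixed length, so a gene without a listed peak is not shown to lack binding.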
